A study of Mus musculus with 20 samples.

Results

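Adult ageing of the cerebral cortex in the absence of the tau transgene was examined by comparing wild-type mice aged 10 months (WT10M, 5 libraries) with wild-type mice aged 3 months (WT03M, 5 libraries), all of the (C57BL/6 x C3H)F1 strain. These were the 10 libraries of the series' 20 whose labels carry the wild-type genotype. Every gene was kept. The other 10 libraries, 5 at each age (TG03M and TG10M), came from PS19 mice of the same strain, which carry a transgene for human tau with the P301S mutation. They served here to estimate the spread between libraries and as the second genotype in the test of whether age differences depended on genotype. All groups were frozen cerebral cortex sequenced for messenger and long non-coding RNA, and only the messenger RNA table was used here. Its unit is FPKM, fragments counted per unit of transcript length and of sequencing depth, and a gene's level is the sum over its transcripts. Of 21949 genes, the 13722 with a mean of at least 0.5 FPKM over the 20 libraries were tested, and 8227 were below that level. No label gives the sex or states that the numbered replicates are separate animals. The p-values therefore describe only the variation among these samples, which may be technical.

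Between young adulthood and middle age the mouse cortex leaves the last steps of postnatal maturation behind. Genes of immature neurons and of growing matrix are known to decline over this period, whereas complement and antigen presentation genes of glia are known to increase later in life. Complement C4 is a plasma and brain protein that is cleaved in the classical and lectin pathways and deposited on surfaces, where it marks them for uptake by phagocytes. In bulk cortex, fewer cells of a type and less RNA per cell cannot be told apart.

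The depth estimated from the steps between low FPKM values was 22.9 to 25.6 M fragments (M, mega) per WT03M library and 23.4 to 29.4 M per WT10M library (exact two-sided permutation test, p = 0.159). Between 12673 and 12722 genes reached 1 FPKM at 3 months and between 12700 and 12770 at 10 months (exact permutation p = 0.0476, 0.0952 adjusted over the 4 library measures). Defining markers of cortical excitatory neurons were abundant, with 257 to 339 FPKM of Slc17a7, the vesicular glutamate transporter, over the wild-type libraries. The 4 Y-linked genes examined were detected in all 10, with a sum of 53.6 to 67.9 FPKM. WT10M replicate 5 stood apart from the other 9. Its score on the first principal component, which held 27.8% of the variance, was 37.5, against -8.28 to 0.385 in the others. Hsp90aa1, the inducible cytosolic chaperone, had 16.6 FPKM in that library and 532 to 687 in the other wild-type ones. In the transgenic libraries Hsp90aa1 was also low in 6 of 10 (13.9 to 20.5 FPKM, against 560.3 to 657 in the other 4), namely TG03M replicates 2 to 5 and TG10M replicates 1 and 5. The mitochondrially encoded genes took 6.37% of the summed FPKM in WT10M replicate 5 and at most 3.71% in the other wild-type libraries. Their share was 3.02 to 3.27% in WT03M and 3.21 to 6.37% in WT10M (exact permutation p = 0.0317, 0.0952 adjusted over the 4 library measures). In the transgenic libraries it was 4.24 to 8.02%. Values that moved by over 1.5 times without WT10M replicate 5 are therefore given both ways where a result rests on them. WT10M replicates 1 and 3 differed in another way: Ttr, the transthyretin gene of the choroid plexus, had 492 and 339 FPKM there and 4.79 to 31.3 in the other 8 wild-type libraries.

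**Figure D1:**
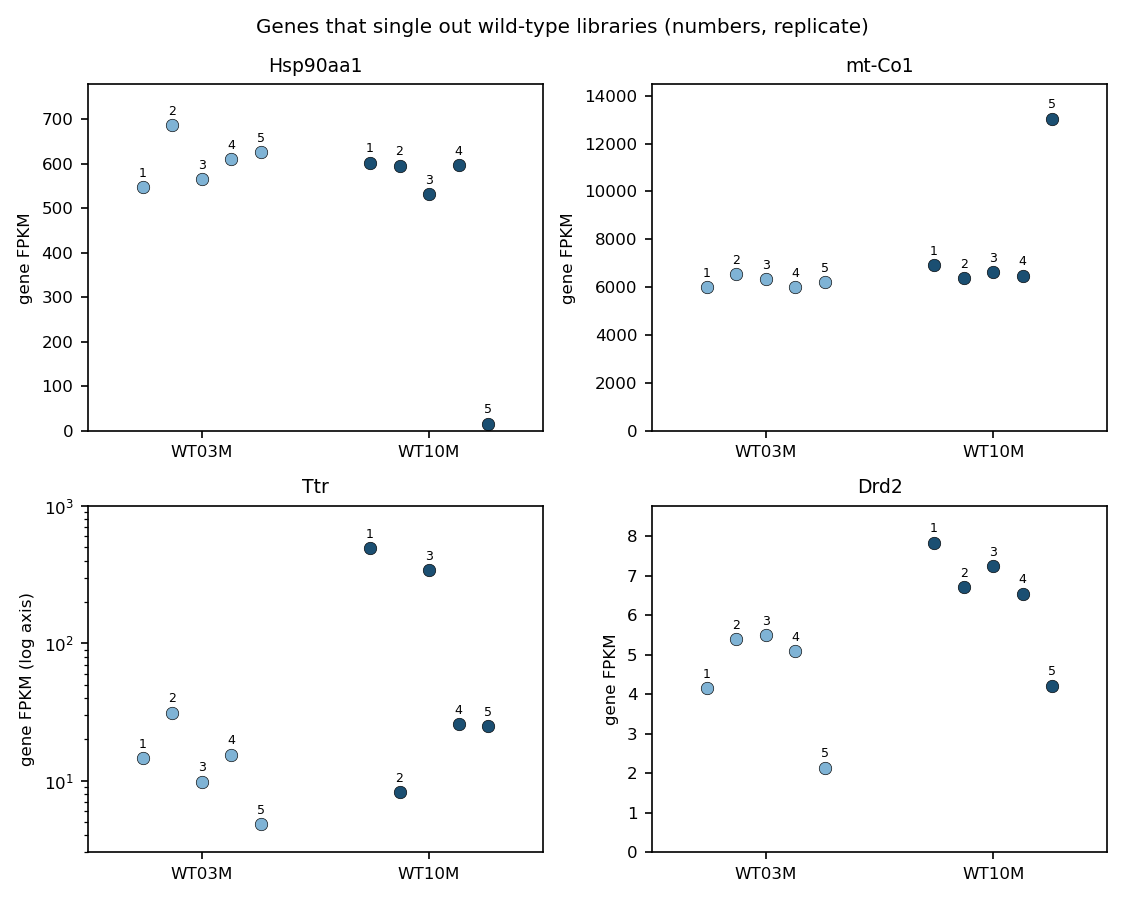
FPKM of Hsp90aa1, mt-Co1, Ttr (log axis) and Drd2 in each wild-type library, with the replicate number above each point. WT10M replicate 5 lies apart in Hsp90aa1 (16.6) and mt-Co1 (13045), and WT10M replicates 1 and 3 lie apart in Ttr (492 and 339).

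Few genes were called between 3 and 10 months. In the fit of limma, with Benjamini-Hochberg adjustment over the 13722 genes, 9 genes (0.0656%) had an adjusted p under 0.05, of which 7 rose (0.051%) and 2 fell (0.0146%). The 7 that rose were Endou, 1700048O20Rik, Gm765, Abca8a, C4b, Slc38a6 and Tmem106c. Those that fell were Met and Sox4. At an unadjusted p under 0.05 there were 922 genes (6.72%), 493 higher (3.59%) and 429 lower (3.13%) at 10 months. In 227 genes (1.65%) the 5 libraries of one age all lay above the 5 of the other, 118 with the higher level at 10 months (0.86%) and 109 with the lower (0.794%). All 9 called genes were among them, which their small p-values make likely. The whole profile was nearly level. The median difference was -0.0035 on the log2 scale, 93.2% of genes lay within 0.25 of 0, and the median standard error was 0.09. The 95% interval lay within 0.5 of 0 for 88.3% of genes and within 1 of 0 for 98.3%. Differences are on the scale of log2(FPKM + 0.5), which understates the change of genes with low levels. Without WT10M replicate 5, 4 genes (0.0292%) were called, namely C4b, 1700048O20Rik, Tmem106c and Vps41, and 450 genes (3.28%) were higher and 388 (2.83%) lower at an unadjusted p under 0.05. The other 6 of the 9 then had an adjusted p of 0.0546 each. Only C4b was called when WT03M replicate 1, 2 or 4 or WT10M replicate 1 was left out, and only Endou when the fit held the wild-type libraries alone.

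**Figure D2:**
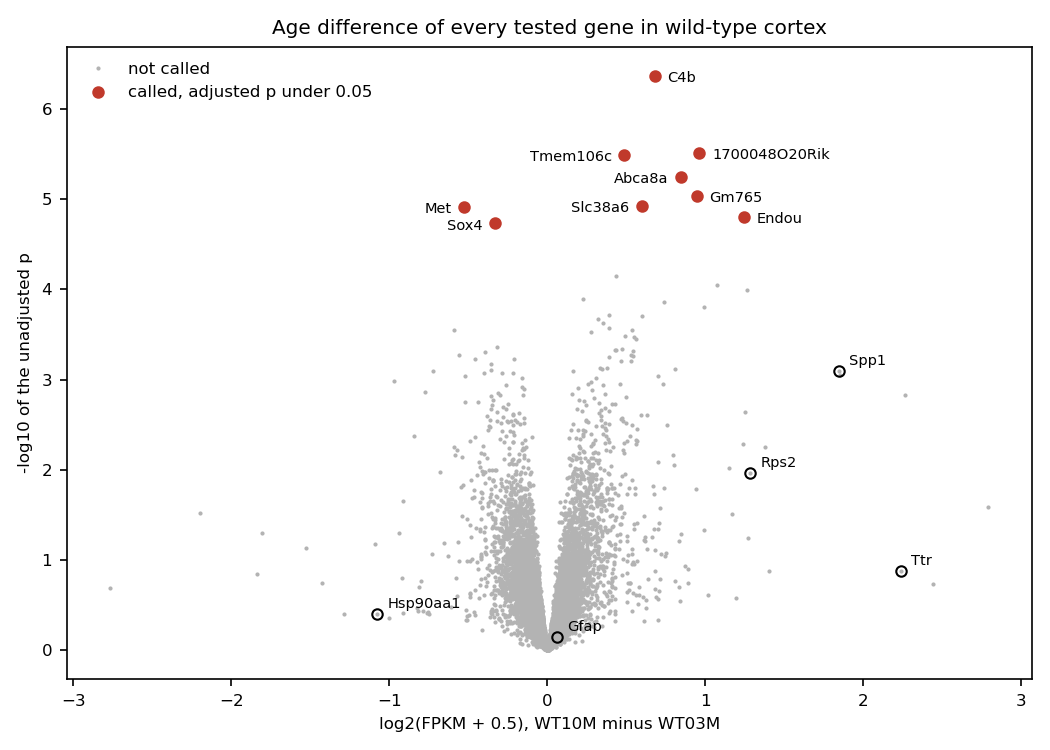
Difference in log2(FPKM + 0.5) between WT10M and WT03M (x axis) and -log10 of the unadjusted limma p (y axis) for each of the 13722 tested genes. The 9 called genes are in red, and 5 genes described in the text that were not called are circled, such as Ttr, whose large difference has a wide error.

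C4b (ENSMUSG00000073418; GRCm38 chr17:34728380-34743882, minus strand), the complement component described above, had the smallest p. Its level in WT03M replicates 1 to 5 was 3.80, 3.64, 3.09, 4.32 and 3.28 FPKM, and in WT10M replicates 1 to 5 it was 6.11, 6.21, 5.49, 7.29 and 5.44 FPKM. The lowest library at 10 months was above the highest at 3 months. The mean rose from 3.63 ± 0.479 to 6.11 ± 0.750 FPKM (SD, n = 5 each), a log2 difference of 0.68 with SE 0.09 (adjusted p = 0.00592). The call was kept when any 1 of the 10 wild-type libraries was left out, with an adjusted p of at most 0.0323. With the wild-type libraries alone the adjusted p was 0.0625. Reads of C4b can also derive from its near-identical neighbour C4a, which was not analysed here.

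Abca8a (ENSMUSG00000041828; chr11:110025634-110095978, minus strand) encodes an ABC transporter of the lipid-transporting A subfamily. It had 1.91, 1.83, 1.73, 1.94 and 2.29 FPKM at 3 months and 3.39, 3.38, 3.33, 5.19 and 4.32 FPKM at 10 months. All 10-month libraries were higher, and replicate 4 was the highest. The log2 difference was 0.84 (SE 0.14, adjusted p = 0.0195). Most of its level came from 1 of its 5 listed transcripts, 83.2% at 3 months and 77.4% at 10 months. Slc38a6 (ENSMUSG00000044712; chr12:73286779-73354049, plus strand), a member of the amino acid transporter family SLC38, was the most abundant gene called. Its values were 33.6, 33.6, 37.1, 29.6 and 44.7 FPKM at 3 months and 51.3, 64.5, 54.3, 47.3 and 53.2 FPKM at 10 months. The gap between the ages was narrow, since WT03M replicate 5 came close to WT10M replicate 4. The log2 difference was 0.60 (SE 0.10, adjusted p = 0.0241).

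Tmem106c (ENSMUSG00000052369; chr15:97964200-97970275, plus strand) encodes a membrane protein of the family of the lysosomal protein TMEM106B. The 3-month libraries were tightly grouped at 8.92, 8.95, 8.69, 8.99 and 9.84 FPKM, and the 10-month libraries had 14.2, 11.2, 11.97, 12.8 and 14.8 FPKM. The log2 difference was 0.49 (SE 0.08, adjusted p = 0.0149). On the same chromosome, Endou (ENSMUSG00000022468; chr15:97711015-97731339, minus strand), an endoribonuclease that cuts at uridylates, was the called gene with the largest fold difference and the lowest level. It had 0.227, 0.247, 0.313, 0.161 and 0.121 FPKM at 3 months and 1.73, 0.855, 1.07, 1.43 and 0.977 FPKM at 10 months. Its log2 difference was 1.24 (SE 0.22, adjusted p = 0.0270), with an adjusted p of 0.0288 in the fit of the wild-type libraries alone. The remaining risers are little-characterised loci. 1700048O20Rik (ENSMUSG00000043773; chr9:121937223-121947016, plus strand), classed as a long intergenic non-coding RNA in GENCODE M21, rose from 1.09 ± 0.187 to 2.63 ± 0.569 FPKM (SD, n = 5 each; log2 difference 0.96, SE 0.15, adjusted p = 0.0149). Gm765 (ENSMUSG00000090667; chr6:98235708-98342754, minus strand) rose from 0.859 ± 0.258 to 2.12 ± 0.481 FPKM (log2 difference 0.94, SE 0.16, adjusted p = 0.0241). Antisense or overlapping non-coding genes are annotated at both loci, and the strand used in counting is not given in the sources used here. Endou, 1700048O20Rik and Gm765 lie outside the rule for named genes and were added after their values were seen, to account for every call.

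Met and Sox4, the genes that fell, are both known from neuronal maturation. Met (ENSMUSG00000009376; chr6:17463800-17573980, plus strand), the receptor tyrosine kinase for hepatocyte growth factor, is known from the axons and early synapses of cortical projection neurons. It had 3.01, 2.96, 2.70, 3.23 and 2.88 FPKM at 3 months and 2.03, 1.70, 1.87, 1.97 and 1.91 FPKM at 10 months. The groups were well separated, and the mean fell from 2.96 ± 0.193 to 1.90 ± 0.125 FPKM (SD, n = 5 each; log2 difference -0.53, SE 0.09, adjusted p = 0.0241). Sox4 (ENSMUSG00000076431; chr13:28948919-28953713, minus strand), a SoxC transcription factor of newly formed neurons, had 6.89, 7.84, 7.80, 6.67 and 7.60 FPKM at 3 months. At 10 months it had 5.39, 5.72, 5.95, 5.81 and 5.80 FPKM. Every 10-month library was below every 3-month library, and the log2 difference was -0.33 (SE 0.06, adjusted p = 0.0285). Sox4 lost its call when any 1 of the 10 wild-type libraries was left out, with an adjusted p of up to 0.133, and Met lost it in 9 of 10 such fits. In each of these fits the log2 difference of Sox4 stayed between -0.36 and -0.31, and that of Met between -0.56 and -0.50.

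**Figure D3:**
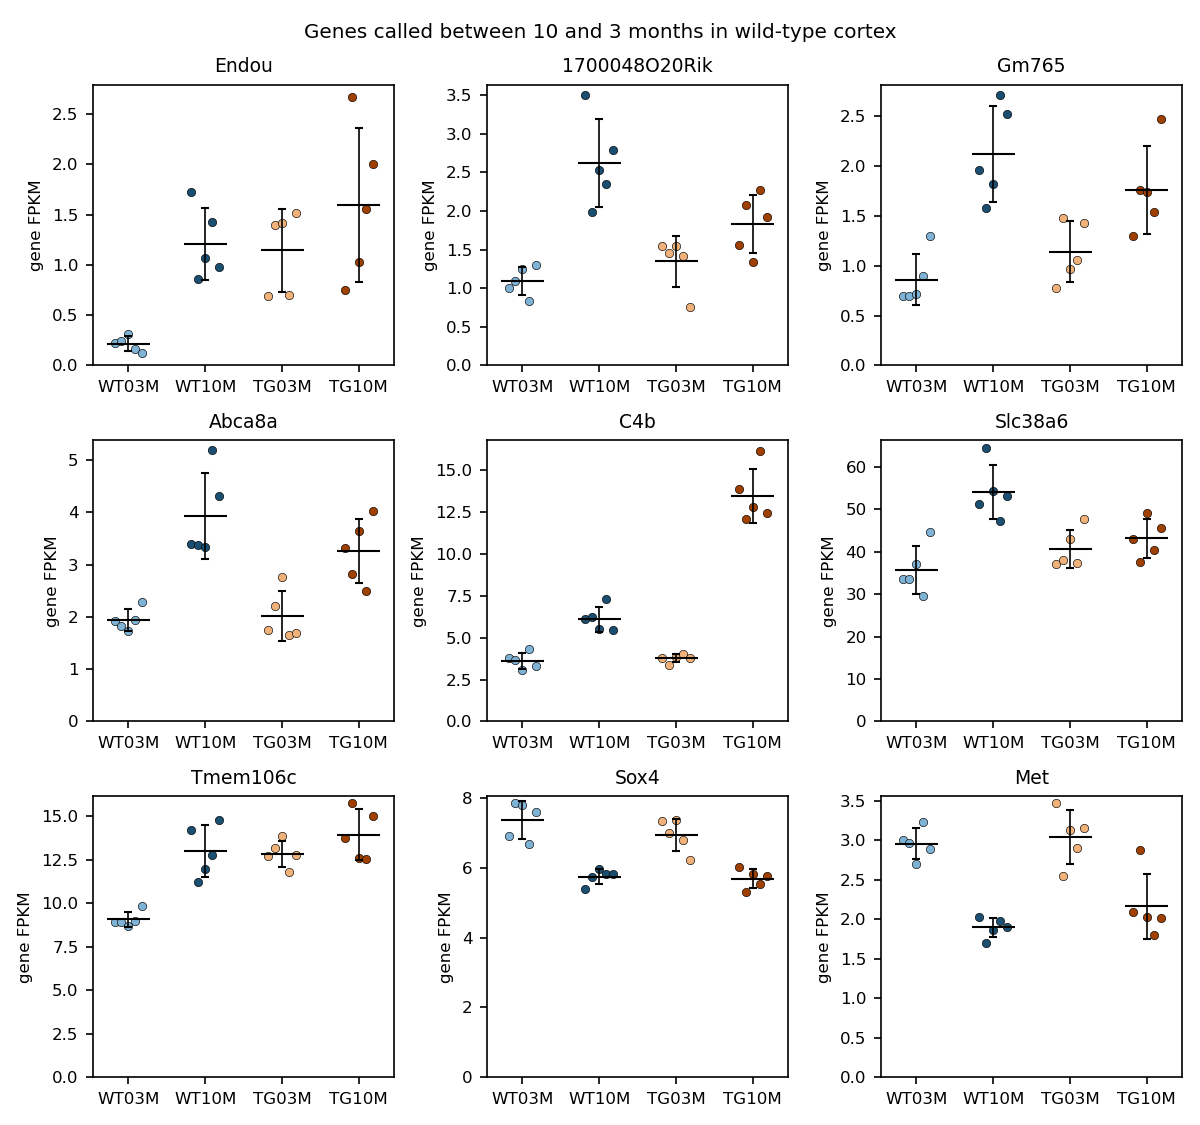
FPKM of the 9 called genes in every library of the 4 groups, with the mean (horizontal line) and SD (bar) of each group. In the wild-type groups no gene overlaps between the ages, and the 3-month transgenic libraries of Tmem106c and Endou lie above the 3-month wild-type ones.

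Promoter windows from RefSeq (GRCm38.p6) were found for 7 of the 9 genes, each covering the 250 bases before the annotated start. Shown are those of the 2 genes that fell and of the 2 genes, other than C4b, that rose and were also called without WT10M replicate 5. Each is written 5′ to 3′ on the strand of the gene and ends before the first base of the gene in GENCODE M21. Capitals mark matches on either strand to GGGCGG (the GC box), CCAAT (the CCAAT box), CACGTG (an E-box) or TATAAA (the TATA box).
Met: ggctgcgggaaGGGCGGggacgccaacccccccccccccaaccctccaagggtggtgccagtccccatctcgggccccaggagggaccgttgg
Sox4: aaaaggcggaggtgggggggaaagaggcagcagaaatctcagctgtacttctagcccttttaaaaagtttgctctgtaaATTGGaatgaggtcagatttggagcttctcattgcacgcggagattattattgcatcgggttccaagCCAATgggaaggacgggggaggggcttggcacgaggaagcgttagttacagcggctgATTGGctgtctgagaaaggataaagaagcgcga
Tmem106c: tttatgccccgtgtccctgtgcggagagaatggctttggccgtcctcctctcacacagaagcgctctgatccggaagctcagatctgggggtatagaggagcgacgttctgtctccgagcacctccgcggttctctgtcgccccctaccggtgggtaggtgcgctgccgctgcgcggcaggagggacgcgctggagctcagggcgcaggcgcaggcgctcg
1700048O20Rik: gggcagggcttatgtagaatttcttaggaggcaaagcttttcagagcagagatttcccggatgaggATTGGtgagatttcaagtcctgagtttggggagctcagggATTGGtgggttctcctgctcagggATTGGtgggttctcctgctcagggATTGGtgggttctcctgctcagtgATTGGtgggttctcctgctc

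The printed bases number 93 for Met, 236 for Sox4, 221 for Tmem106c and 198 for 1700048O20Rik. Those of Met (chr6:17463707-17463799) hold 1 GC box and those of Sox4 (chr13:28953714-28953949) hold 3 CCAAT boxes. In those of 1700048O20Rik (chr9:121937025-121937222) there are 5 CCAAT boxes, and the printed bases of Tmem106c (chr15:97963979-97964199) hold none of the motifs. Over the full 250 bases there are 3 GC boxes and 1 E-box in Met, 4 CCAAT boxes in Sox4, 1 GC box in Tmem106c and 6 CCAAT boxes in 1700048O20Rik. The CpG count over the same bases was 24 in Met, 27 in Tmem106c, 11 in Sox4 and 1 in 1700048O20Rik, against a median of 6 over 32851 RefSeq promoter windows. Of those 250-base windows, 32.7% hold a GC box, 33.8% a CCAAT box, 12.4% a TATA box and 6.02% an E-box. The pair of falling genes thus shares no motif in these windows, and the matches are a description of the letters only.

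The genes next in rank did not pass the test, and their values are given as such. On the higher side at 10 months were Alox8, an arachidonate lipoxygenase (0.951 ± 0.154 to 1.46 ± 0.0710 FPKM, log2 difference 0.44, adjusted p = 0.0980), and Vps13c, a lipid transfer protein of organelle contacts (13.9 ± 0.233 to 16.3 ± 0.825 FPKM, log2 difference 0.22, adjusted p = 0.136). Pycard, the inflammasome adaptor ASC, had 0.620 to 1.46 FPKM at 3 months and 1.77 to 3.21 FPKM at 10 months (log2 difference 0.99, SE 0.21, adjusted p = 0.143). Cyp27a1, a mitochondrial sterol hydroxylase, Spag6l, a component of motile cilia, and Zfp935, a zinc finger gene, had log2 differences of 0.39, 0.60 and 0.32 with adjusted p-values of 0.158, 0.158 and 0.164. None of these 6 overlapped between the ages. On the lower side were Apcdd1, a membrane-bound inhibitor of Wnt signalling (log2 difference -0.59, adjusted p = 0.177), the secreted proteoglycan Tsku (-0.32, 0.212) and Slc7a5, the large neutral amino acid transporter of the blood-brain barrier (-0.39, 0.212). Gpr17, a receptor of differentiating oligodendrocyte precursors, had 6.09 to 11.7 FPKM at 3 months and 4.52 to 5.81 FPKM at 10 months (log2 difference -0.56, SE 0.14, adjusted p = 0.212). Mycn, a MYC family transcription factor, and Arl2bp, a partner of the ARL2 GTPase, had log2 differences of -0.46 and -0.21 (adjusted p = 0.214 each). These 6 did not overlap between the ages either, where 1.65% of all genes did not. The genes of both directions were picked for small p-values in the same comparison. Their separation thus largely follows from the choice and is no added support.

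One gene was called only when WT10M replicate 5 was left out. Vps41, a subunit of the HOPS complex that tethers membranes to lysosomes, had 68.6 to 75.7 FPKM at 3 months and 57.1, 50.5, 55.6 and 55.7 FPKM in WT10M replicates 1 to 4. Replicate 5 had 85.2 FPKM, above all other wild-type libraries. The log2 difference was -0.26 with that library (adjusted p = 0.574) and -0.39 without it (adjusted p = 0.0494). For Hist1h4a, Pcdhga6 and Hist1h2bn the log2 differences were 0.49, 0.47 and -0.51 with the library and 0.58, 0.60 and -0.79 without it. None of the 3 was called in either fit, and the adjusted p without it was 0.0546 each. The histone and clustered protocadherin genes belong to families of near-identical copies, so the assignment of their reads is uncertain.

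A total of 40 lists of cell type and pathway genes, which share members, were examined by their counts and medians. Among the 464 distinct list genes that were tested, 2 were called (0.431%, against 0.0656% of all genes), C4b and Sox4. At an unadjusted p under 0.05, 17 were higher and 27 lower at 10 months (9.48% of the 464, against 6.72% of all genes), and 9 did not overlap between the ages, where 1.65% of all genes did not. The lists were chosen with earlier results of these data known, so the higher shares can follow from that choice. Of the lists with at least 5 tested members, those with medians furthest above the median of all genes were choroid plexus, striatum and complement, and those furthest below were endothelial, immature neuron and fibroblast.

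**Figure D4:**
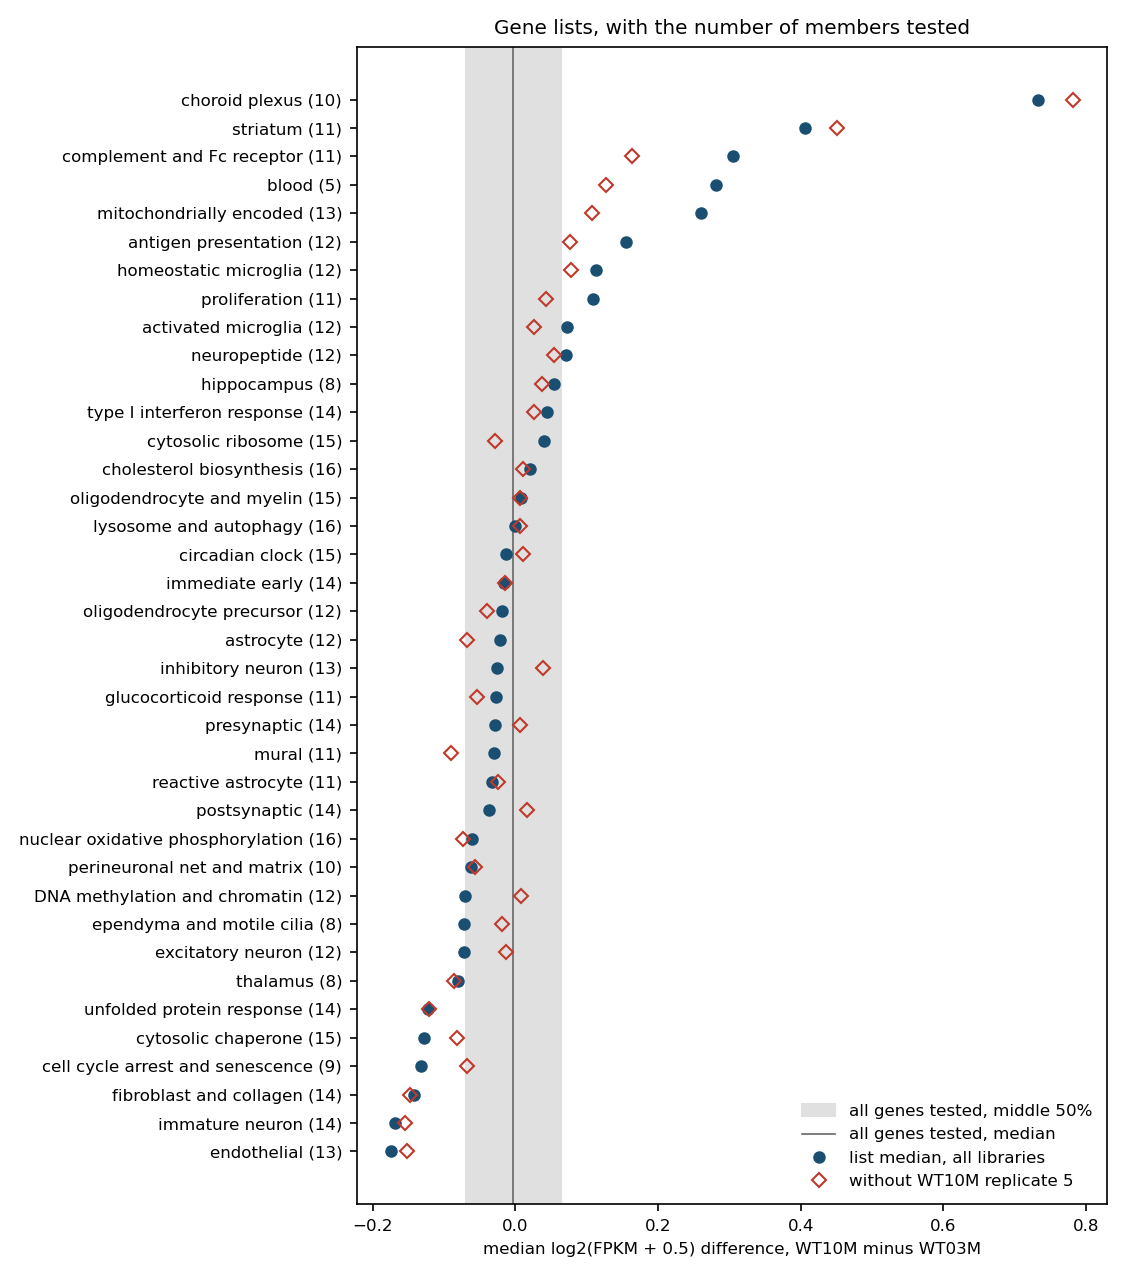
Median difference in log2(FPKM + 0.5) between WT10M and WT03M for each list with at least 5 tested members, with all libraries (filled circles) and without WT10M replicate 5 (open diamonds). The grey band is the middle 50% of all tested genes. The choroid plexus list has the highest median (0.73) and the endothelial list the lowest (-0.17).

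Immune genes were led by C4b. In the list of complement components and Fc receptors, 1 of 11 tested members rose and 0 fell, where 0.051% of all genes rose. The 1 was C4b itself, so the count adds nothing about the rest of the list. Of the 11, 8 were above and 3 below 0, and the median was 0.31, or 0.16 without WT10M replicate 5. C1qa and C1qb, chains of the C1q molecule that starts the classical pathway, had 39.4 to 54.1 and 19.0 to 36.1 FPKM at 3 months. At 10 months C1qa had 49.6, 47.3, 44.0, 61.2 and 81.8 FPKM and C1qb had 33.7, 27.4, 24.1, 42.5 and 49.8 FPKM. Both were highest in WT10M replicate 5 and overlapped between the ages, with log2 differences of 0.31 (adjusted p = 0.692) and 0.44 (adjusted p = 0.751), or 0.17 and 0.30 without that library. Fcer1g, the signalling chain of Fc receptors, differed by 0.47 (adjusted p = 0.675) and by 0.30 without that library. Of 12 antigen presentation genes none was called. The peptide transporter subunits Tap1 (log2 difference 0.31) and Tap2 (0.28) and the class II chain H2-Aa (0.43) had adjusted p-values of 0.565, 0.504 and 0.770, and in Tap1 the ages did not overlap. Ifi27, an interferon-induced gene of the mitochondrial membrane, had 26.9 to 30.8 FPKM at 3 months and 31.0 to 41.2 FPKM at 10 months, without overlap (log2 difference 0.30, adjusted p = 0.561). It was the only one of 14 interferon response genes with an unadjusted p under 0.05.

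No microglial marker was called. Of the 12 homeostatic markers 11 were above 0, the median was 0.11, and the values of Cx3cr1, the fractalkine receptor, ranged from 14.6 to 17.1 FPKM at 3 months and from 14.996 to 18.3 FPKM at 10 months. Among 12 tested markers of activated microglia, 6 were above and 6 below 0. Spp1, the osteopontin gene, had the largest difference of the list. Its levels were 0.642, 3.55, 1.37, 0.506 and 3.13 FPKM at 3 months and 7.75, 5.41, 2.56, 11.2 and 10.3 FPKM at 10 months. WT10M replicate 3 lay within the range of the 3-month libraries, and the log2 difference of 1.85 (SE 0.47) had an adjusted p of 0.226. Lpl and Tyrobp had log2 differences of 0.30 and 0.19 (adjusted p = 0.768 and 0.873), or 0.40 and 0.06 without WT10M replicate 5. Cd9, another marker of the list, went the other way, at -0.22 (adjusted p = 0.796), or -0.10 without that library. Ctss, a lysosomal protease of microglia, differed by 0.34 (adjusted p = 0.541). It belongs to the lysosome and autophagy list, in which 7 of 16 genes were above and 9 below 0.

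Of the 14 tested genes of immature neurons 1 fell (Sox4, whose call was lost in each fit with a library left out) and 0 rose, where 0.0146% of all genes fell. All 14 had a negative difference, 5 of them with an unadjusted p under 0.05, against 3.13% of all genes. The median was -0.17, or -0.15 without WT10M replicate 5. Marcksl1, a regulator of actin in growing neurites, had 49.95, 39.3, 43.6, 48.6 and 42.9 FPKM at 3 months and 23.2, 32.9, 38.3, 26.7 and 45.5 FPKM at 10 months. Replicate 5 of WT10M was the one library within the 3-month range, and the log2 difference was -0.46 (adjusted p = 0.372), or -0.58 (adjusted p = 0.154) without it. Dpysl3, a microtubule-binding protein of growth cones, went from 13.9 ± 1.42 to 11.3 ± 0.821 FPKM (SD, n = 5 each; log2 difference -0.29, adjusted p = 0.347). Ccnd2, a cyclin of neural progenitors, had 4.85 FPKM in WT10M replicate 5 and 11.2 to 13.9 FPKM in the other WT10M libraries. Its log2 difference was -0.54 (adjusted p = 0.666) and -0.29 without that library. Among 11 tested proliferation genes none was called, and Hmgb2 was the one with an unadjusted p under 0.05 (log2 difference -0.25, adjusted p = 0.629, or -0.16 without WT10M replicate 5).

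Matrix genes of the meninges and vessels had lower medians at 10 months, with no call. In the fibroblast and collagen list 10 of 14 members were below 0 and the median was -0.14. Col1a2, a chain of type I collagen, had 9.82, 8.61, 6.22, 7.72 and 5.61 FPKM at 3 months and 4.54, 6.64, 4.94, 4.93 and 4.39 FPKM at 10 months. WT10M replicate 2 lay within the 3-month range, and the log2 difference was -0.52 (SE 0.13, adjusted p = 0.229). Col1a1 and Col3a1 had log2 differences of -0.54 and -0.48, and the basement membrane chain Col4a1 one of -0.23 (adjusted p = 0.461, 0.546 and 0.606). The endothelial list had 10 of 13 members below 0 and a median of -0.17. Its members with the smallest p were Itm2a, a membrane protein of brain endothelium, the efflux pump Abcb1a and the glucose transporter Slc2a1, with log2 differences of -0.37, -0.27 and -0.28 (adjusted p = 0.333, 0.591 and 0.692). Among 11 mural cell genes none was called, with Rgs5 at -0.14 and Notch3 at -0.23 (adjusted p = 0.690 and 0.704), the latter -0.15 without WT10M replicate 5.

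In the perineuronal net list, which holds the aggrecan family and its link proteins, the members differed in direction and none of 10 was called. Ncan, the proteoglycan neurocan, had 41.2 to 47.5 FPKM at 3 months and 37.5 to 39.9 FPKM at 10 months, without overlap (log2 difference -0.16, SE 0.04, adjusted p = 0.234). Tnc, or tenascin C, and the link protein Hapln1 had log2 differences of -0.34 and -0.26 (adjusted p = 0.55 and 0.6995), the latter -0.15 without WT10M replicate 5. The link protein of nodes of Ranvier, Hapln2, had 5.04 to 6.96 FPKM at 3 months and 6.27 to 8.95 FPKM at 10 months (log2 difference 0.36, adjusted p = 0.312).

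Oligodendrocyte genes had medians near 0, -0.02 for 12 precursor genes and 0.01 for 15 myelin genes, with no call in either. Without WT10M replicate 5 the precursor median was -0.04. Cldn11, the tight junction protein of myelin, differed by -0.24 (adjusted p = 0.482), while Sox10, the transcription factor of the lineage, differed by 0.39 (adjusted p = 0.525).

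Astrocyte genes did not pass the test. Of 12 tested, 5 were above and 7 below 0, with a median of -0.02, or -0.07 without WT10M replicate 5. Aqp4, the water channel of astrocyte endfeet, had 30.0 to 33.9 FPKM at 3 months and 23.1 to 28.9 FPKM at 10 months, without overlap (log2 difference -0.21, SE 0.08, adjusted p = 0.546). Aldoc, another member of the list, differed by 0.17 (adjusted p = 0.747), or 0.09 without WT10M replicate 5. Gfap, the intermediate filament of reactive astrocytes, had 42.6, 41.3, 43.6, 51.5 and 42.6 FPKM at 3 months and 42.7, 49.8, 38.2, 57.8 and 44.2 FPKM at 10 months. The ages overlapped throughout, the log2 difference was 0.06 (adjusted p = 0.961), and its 95% interval ran from -0.26 to 0.38. Of 11 tested reactive astrocyte genes none was called, 5 were above and 6 below 0, and the median was -0.03. The members with the smallest p, Serpina3n and Ggta1, differed by 0.33 and 0.24 (adjusted p = 0.616 and 0.585).

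Neuronal and synaptic lists had no called gene. Their medians were -0.07 for 12 excitatory neuron genes, -0.03 for 13 inhibitory neuron genes, -0.03 for 14 presynaptic and -0.04 for 14 postsynaptic genes. Without WT10M replicate 5 they were -0.01, 0.04, 0.01 and 0.02 in that order, so all but the first turned in sign. Nrgn, a calmodulin-binding protein of dendritic spines, had 292 to 334 FPKM at 3 months, 277 to 306 FPKM in WT10M replicates 1 to 4 and 166 FPKM in replicate 5. Stx1a, a syntaxin of synaptic vesicle fusion, differed by -0.23 (adjusted p = 0.583). Of 16 cholesterol synthesis genes none was called, with Idi1 at -0.21 and Hmgcs1 at -0.20 (adjusted p = 0.371 and 0.696), the latter -0.09 without WT10M replicate 5. The median of the 13 mitochondrially encoded genes was 0.26 with WT10M replicate 5 and 0.11 without it. The cytosolic chaperones had 14 of 15 members below 0 and a median of -0.13, or -0.08 without that library, with no call. All 9 tested genes listed under cell cycle arrest and senescence were below 0, with a median of -0.13 (-0.07 without it) and no call. The list mixes members of different roles, so their shared sign gives no direction of either process. Prnp, whose promoter drives the transgene in PS19 mice, and Mapt, the mouse tau gene, served as reference genes. Prnp had 436 ± 12.6 and 442 ± 48.4 FPKM and Mapt 153 ± 6.61 and 151 ± 13.8 FPKM at 3 and 10 months (SD, n = 5 each), with log2 differences of 0.02 and -0.02 (adjusted p = 0.976 and 0.969) whose signs turned when WT10M replicate 5 was left out (-0.05 and 0.02).

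Genes that mark tissue next to the cortex varied between libraries. All 10 tested choroid plexus genes had positive differences, with a median of 0.73 and no call. Their summed level was 89.1 to 120 FPKM at 3 months and 94.1 to 677 FPKM at 10 months. Without Ttr, the other 9 members summed to 83.1 to 91.4 FPKM at 3 months, to 185 and 138 FPKM in WT10M replicates 1 and 3 and to 85.1 to 93.1 FPKM in the other WT10M libraries. Without replicates 1 and 3 the median of the list was 0.11. Among the other members, Otx2, a homeobox factor of the plexus, had 0.0949 to 0.447 FPKM at 3 months and 0.398 to 1.39 FPKM at 10 months. All 11 striatal genes also had positive differences, with a median of 0.41 and no call, and their sum was 216 to 564 FPKM at 3 months and 460 to 598 FPKM at 10 months. The dopamine receptor Drd2 had 4.16, 5.39, 5.50, 5.09 and 2.14 FPKM at 3 months and 7.83, 6.72, 7.24, 6.55 and 4.21 FPKM at 10 months. Its log2 difference was 0.53 (adjusted p = 0.841), and the values for Drd1 and Rgs9 were 0.43 and 0.57 (adjusted p = 0.866 and 0.832). WT03M replicate 5 was the lowest library for all 3 of these genes. No marker of either list was listed at 0 in every wild-type library. Without WT10M replicates 1 and 3, C4b was the 1 gene called (log2 difference 0.72, adjusted p = 0.0496), and Abca8a had a log2 difference of 0.96 (adjusted p = 0.0501). The part of these tissues in the age differences was not tested further.

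The test of whether the age difference depended on genotype called 5 genes (0.0364%), and in each the transgenic cortex had the larger difference. C4b was among them. Its levels in the transgenic libraries were 3.39 to 4.02 FPKM at 3 months, within the range of WT03M, and 12.1 to 16.1 FPKM at 10 months, above every WT10M library. The age difference was 1.71 in transgenic and 0.68 in wild-type cortex, a difference of 1.03 between them (SE 0.13, adjusted p = 0.00113). The other 4 were Cst7, a cysteine protease inhibitor of activated microglia, Gfap, Cyba, a subunit of the phagocyte NADPH oxidase, and the lysosomal protease Ctsz. Their wild-type age differences were 0.15 (0.07 without WT10M replicate 5), 0.06, -0.06 and 0.17, none of them called, and their transgenic ones 2.42, 1.46, 0.82 and 0.78 (adjusted p of the difference between genotypes 0.000419, 0.0122, 0.0122 and 0.0465). Without WT10M replicate 5 and TG10M replicates 1 and 5, 4 genes were called between genotypes, all of them among the 5. The wild-type libraries held little Cst7, at 0 to 0.170 FPKM at 3 months and 0.057 to 0.314 FPKM at 10 months. Cst7 had 0 to 0.101 FPKM in TG03M and 1.20 to 3.61 FPKM in TG10M. It thus passed the filter on the mean level only through TG10M, the group that also gave its difference between genotypes. Its wild-type age difference compares values near 0 and says little about age.

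**Figure D5:**
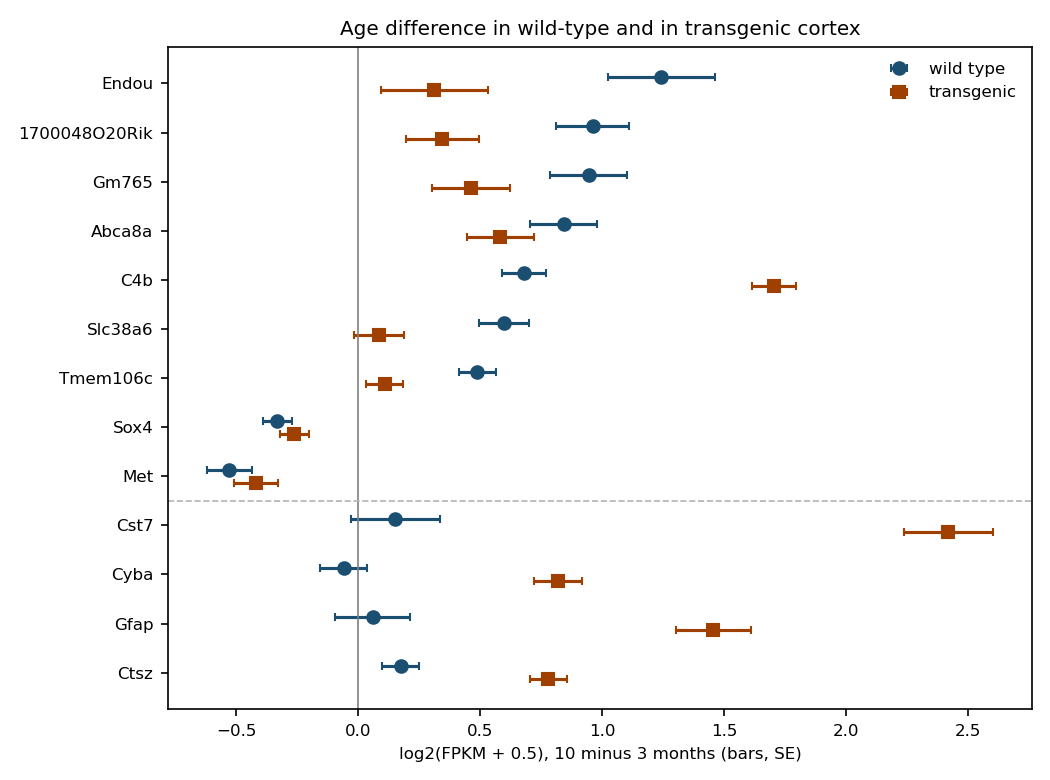
Age difference in log2(FPKM + 0.5) with its SE in wild-type (circles) and transgenic (squares) cortex, 5 libraries per group, for the 9 genes called in wild type (above the dashed line) and the other 4 genes whose age difference depended on genotype. C4b is the one gene in both sets, at 0.68 in wild type and 1.71 in transgenic cortex.

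All 9 genes called in wild type had an age difference of the same sign in transgenic cortex, where 116 genes (0.845%) were called. Of the 922 genes with an unadjusted p under 0.05 in wild type, 740 (80.3%) had the same sign in transgenic cortex, against 64.8% of all genes tested. The wild-type and transgenic age comparisons share no library, but their 10-month groups share a feature. WT10M replicate 5 and TG10M replicates 1 and 5 were all low in Nrgn (166, 176 and 172 FPKM) and Hsp90ab1 (188, 234 and 185 FPKM). The other 10-month libraries had at least 277 FPKM of Nrgn and 394 FPKM of Hsp90ab1. The agreement of signs without those libraries was not tested. Abca8a, Met and Sox4 differed by 0.58, -0.42 and -0.26 in transgenic cortex, beside C4b the ones that were called there too (adjusted p = 0.0476, 0.0324 and 0.0377). Met and Sox4 had 3.04 and 6.93 FPKM on average in TG03M and 2.16 and 5.69 FPKM in TG10M, beside 2.96 and 7.36 FPKM in WT03M and 1.90 and 5.74 FPKM in WT10M. Tmem106c, Endou and Slc38a6 followed another order. Tmem106c had 11.8 to 13.8 FPKM in TG03M and 12.5 to 15.8 FPKM in TG10M, so the WT03M libraries, at 8.69 to 9.84 FPKM, lay below all other libraries. Endou likewise had 0.690 to 1.52 FPKM in TG03M, above the 0.121 to 0.313 FPKM of WT03M. The transgenic age differences were 0.11 for Tmem106c, 0.31 for Endou and 0.09 for Slc38a6, and none of the 3 was called there. The difference between genotypes was -0.38, -0.93 and -0.51 for them and did not pass the adjusted test (adjusted p = 0.724, 0.888 and 0.724).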

How the data were processed

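Cerebral cortex RNA of 20 libraries, 5 for each genotype and age, was measured. Per the labels, the values deposited by the authors are FPKM per transcript, that is, fragments scaled to transcript length and to mapped fragments. The submitters' processing notes name CASAVA, TopHat2, Cuffdiff and DESeq2 and the build GRCm38 (mm10), while their roles and versions and the strand setting were not stated there or in the labels. FPKM were summed per gene ID, and 27 symbols turned into dates were restored by gene ID. Genes averaging at least 0.5 FPKM over 20 libraries entered limma 3.58.1 (R 4.3.3) as log2(FPKM + 0.5) (lmFit, contrasts.fit, eBayes with trend, two-sided, Benjamini-Hochberg), in 1 fit of all libraries with 16 residual degrees of freedom, which was tested on simulated data. The file holds no counts, and depth was estimated from the steps of low values. Library measures used exact permutation tests (scipy 1.17.1), whose smallest p is 0.00794. Figures used matplotlib 3.10.9.

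The genes named were, among called genes with a mean of at least 1 FPKM and without predicted models, up to 12 per direction. Where fewer were called, the 6 with the next smallest p per direction were added. The same rule with 8 per direction was used without WT10M replicate 5. Up to 4 members of each list with the smallest p, the 5 genes with the largest share of FPKM, Prnp and Mapt completed the set. The comparison, the gene lists and the rules were chosen with earlier results of these data known. The alternatives were other pseudocounts, filters, scalings, designs and left-out libraries. One further gene that the rule takes is not reported here.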

Additional observations from a re-analysis of the deposited data

Results flagged for a closer look

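The 178 sets of 5 values examined were made of most of the genes the text describes and 4 library measures in each wild-type group. Of them, 22 held a library whose gap to the others was wide by Dixon's criterion, where chance gives about 1 in 20. That rate is no yardstick here, since some genes (Vps41, Hist1h2bn, Hsp90aa1) were named because of WT10M replicate 5. WT10M replicate 5 accounts for 13 of them. It was the highest library of its group for Vps41 (85.2 FPKM), Hist1h2bn (19.9 FPKM), Fcer1g (9.30 FPKM), Prnp (528 FPKM) and the ribosomal protein gene Rps27 (3818 FPKM). It was also the highest for the mitochondrial genes mt-Nd5 (274 FPKM), mt-Co1 (13045 FPKM) and mt-Atp8 (11642 FPKM), for the mitochondrially encoded share (6.37%) and for the summed FPKM (471818). Its lowest values were those of Hsp90aa1 (16.6 FPKM), Hsp90ab1 (188 FPKM) and Nrgn (166 FPKM). The other WT10M library singled out was replicate 2, the highest for Col1a2 (6.64 FPKM).

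At 3 months, replicate 2 was the highest library for Gpr17 (11.7 FPKM) and Col4a1 (11.4 FPKM) and the lowest for Itm2a (24.1 FPKM) and Vps13c (13.5 FPKM). Replicate 4 was the highest for Aqp4 (33.9 FPKM), Prnp (458 FPKM) and Gfap (51.5 FPKM), and replicate 5 for Tmem106c (9.84 FPKM).

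By limma's interaction term, the age difference was larger in transgenic than in wild-type cortex by 2.27 for Cst7, 1.40 for Gfap, 1.03 for C4b, 0.88 for Cyba and 0.61 for Ctsz on the log2 scale. Cst7 passed the filter only through its level in TG10M.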

How the results depend on the processing

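All 9 called genes kept their direction under every alternative run, and 97 of their 225 values were no longer past the threshold. The count of 9 became 1 with the wild-type libraries only, 4 with these and without WT10M replicate 5, 44 with array weights, 1 with transcripts in place of genes, and 1 without the 2 WT10M libraries highest in Ttr, an alternative chosen after seeing the data. Leaving out 1 library at a time gave 1 to 9 calls. With the replicate block 5 genes were called, and 0 with the block in the wild-type libraries only. Same-numbered libraries of the 2 ages had correlations of -0.05 to 0.10 between their deviations and share only a number. The 5 calls of the test between genotypes became 3 with a filter at a mean of 1 FPKM, 10 with array weights, 3 with transcripts and 2 without the libraries highest in Ttr, and 4 to 6 with 1 library left out.

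Of 1898 values of 76 other genes that the text describes, 11 turned in sign, all for genes near 0. Mapt was 0.0326 with array weights and 0.0191 in the 3 alternatives without WT10M replicate 5 (also without TG10M replicates 1 and 5, or with the wild-type libraries only), and ran from -0.0593 to 0.0191 with 1 library left out. Prnp was -0.0403 with array weights and -0.0498 in those 3, and ran from -0.0498 to 0.0398. Gfap ran from -0.0220 to 0.126, and the difference in summed FPKM from -3712 to 5518. The causes were not tested. Of 1000 list medians 990 moved by less than the spread between replicates. With 5 libraries a group the median SE was 0.09, and a call took a difference of several SE (Sox4, -0.33 with SE 0.06). Differences below that, above all in low or variable genes, were not detectable. A gene that was not called may therefore still have differed.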

Other observations

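Ribosomal protein genes had a median difference of 0.04 over 15 members (-0.03 without WT10M replicate 5), with no call, but Rps2 fell into separate ranges within the 3-month group. It had 377, 214, 69.6, 73.4 and 70.1 FPKM in WT03M replicates 1 to 5 and 348, 209, 222, 378 and 410 FPKM in WT10M replicates 1 to 5. The ages overlapped, and the log2 difference was 1.28 (SE 0.46, limma adjusted p = 0.525). TG03M replicates 1 to 5 had 225, 201, 64.7, 66.9 and 63.7 FPKM of Rps2, low in the same replicate numbers as WT03M. The cause was not tested. Rpl3 had 303 to 391 FPKM at 3 months and 369 to 464 FPKM at 10 months (log2 difference 0.33, adjusted p = 0.466).

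Blood genes, mostly globins, varied as widely within an age as between ages, with sums of 264 to 667 FPKM at 3 months and 318 to 661 FPKM at 10 months and a median of 0.28 (0.13 without WT10M replicate 5). The immediate early genes, which follow neuronal activity, summed to 174 to 594 FPKM and 206 to 577 FPKM, with a median of -0.02 over 14 members and no call. Of 11 lymphocyte genes 1 was abundant enough to be tested. In the list of motile cilia genes Spag6l, described above as higher at 10 months, stood beside Foxj1, the master factor of motile cilia, with 1.72 to 2.45 FPKM at 3 months and 1.29 to 1.92 FPKM at 10 months (log2 difference -0.22, adjusted p = 0.687). Neither passed the test.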
